A study of Mus musculus with 4 samples.

Results

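The enzymes that attach ubiquitin and related protein tags, and those that remove them, were compared between the livers of PEPCK-TAg mice and of wild-type mice. The members are all probe sets of the value table whose single gene symbol begins with Uba and a digit, Ube1 to Ube3, Usp and a digit, Uch, Cul and a digit, Fbx, Skp, Sumo, Nedd4 or Nedd8. This symbol rule gave 112 probe sets of 80 genes, out of 12422 probe sets that are not array controls. The rule itself uses no measured values, but members and lists were chosen with earlier results of these data known. Of the 112, 87 probe sets of 68 genes were bright enough to be tested.

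Total liver RNA came from male B6SJL hybrid mice, 50 to 66 days old, and each sample was put on 1 Affymetrix MG_U74Av2 array. PEPCK-TAg mice carry a transgene for the transforming (T) antigens of the SV40 virus, and the line's name gives the PEPCK promoter, which is known to be active in hepatocytes. Wild-type mice carry no transgene, and both groups had been on the same diet of 65% protein and 10% carbohydrate for 4 weeks from weaning. Each group had 2 arrays. The sources used here do not say whether replicates are separate animals, so p-values measure only the spread between these arrays, which may be technical. Signals are the authors' MAS5 intensities on a linear scale, and a difference is the PEPCK-TAg mean minus the wild-type mean of log2 signals.

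Ubiquitin is a small protein that marks other proteins for breakdown by the proteasome or for a change of partner or place. An E1 enzyme activates the tag, an E2 carries it, and an E3 ligase brings the E2 to the target, either alone or as a complex built on a cullin scaffold with an adaptor and a substrate receptor. Ubiquitin-specific proteases and ubiquitin C-terminal hydrolases take tags off again. SUMO, NEDD8 and ISG15 are ubiquitin-like tags with E1 and E2 enzymes of their own. In dividing cells, E2 enzymes and cullin-type ligases time the removal of cyclins and other cell cycle proteins.

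Few members were called different between the groups. The E2 enzymes Ube2t, Ube2v2 and Ube2s and the protease Usp1 rose in PEPCK-TAg liver, and 1 of the 2 tested probe sets of the protease Usp15 fell. These were the 5 probe sets of 87 tested that passed a Benjamini-Hochberg adjusted p of 0.05 in limma's moderated test, fitted across all 7877 probe sets that were bright enough. The share called among the members was 5.75%, where 12.5% of all probe sets tested were called. By direction, 4 members were called higher, where 9.10% of all probe sets were, and 1 was called lower, where 3.40% of all probe sets were. The median difference of the tested members was 0.042 on the log2 scale, with quartiles of -0.35 and 0.43, and that of all probe sets tested was 0.051, with quartiles of -0.40 and 0.62. Differences under 0.5 in size were found for 54 of the 87 members. Members not called may still differ, since limma's 95% intervals can be wide (-0.022 to 1.44 for 1 Ube2d3 probe set).

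Without a test, 8 members were at least 2-fold higher and 2 at least 2-fold lower with no overlap between the arrays of the groups (9.20% and 2.30%), where 14.7% and 5.87% of all probe sets did so. Quantile normalization moved the median of all probe sets to -0.088, and the split was then 5 higher and 5 lower among the members, against 888 and 695 over all probe sets (1154 and 462 with the scaling used here). In 50 of the 87 members, or 57.5%, the groups did not overlap, and this held for 59.8% of all probe sets. With so few arrays, the smallest p of an exact permutation test on a single member is 0.333.

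The array runs limit these calls. Leaving out PEPCK-TAg 1, limma called 0 members at the adjusted threshold (3 higher and 1 lower at an unadjusted p of 0.05), and leaving out PEPCK-TAg 2 also 0 (6 higher and 3 lower unadjusted). Ube2t and Ube2v2 were not tested in either case, since they enter through both PEPCK-TAg arrays, so the filter fixed the loss of those calls. Without wild-type 1 it called 9 higher and 5 lower, and without wild-type 2, 9 higher and 2 lower. A block for fluidics station, which only PEPCK-TAg 2 did not share, left 0 calls (8 higher and 2 lower unadjusted). Counts over all probe sets moved too, to 107 higher and 60 lower of 7418 without PEPCK-TAg 1, 88 and 39 of 7430 without PEPCK-TAg 2, 1207 and 482 of 7552 without wild-type 1, 876 and 303 of 7545 without wild-type 2, and 0 and 0 of 7877 with the station block, against 717 and 268 of 7877 with all arrays and no block. Both PEPCK-TAg arrays came from 1 chip lot that holds no wild-type array, so lot and group cannot be told apart. PEPCK-TAg 1 and wild-type 1 were scanned on 1 day, and differences within that pair are given below as same-day values.

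**Figure D1:**
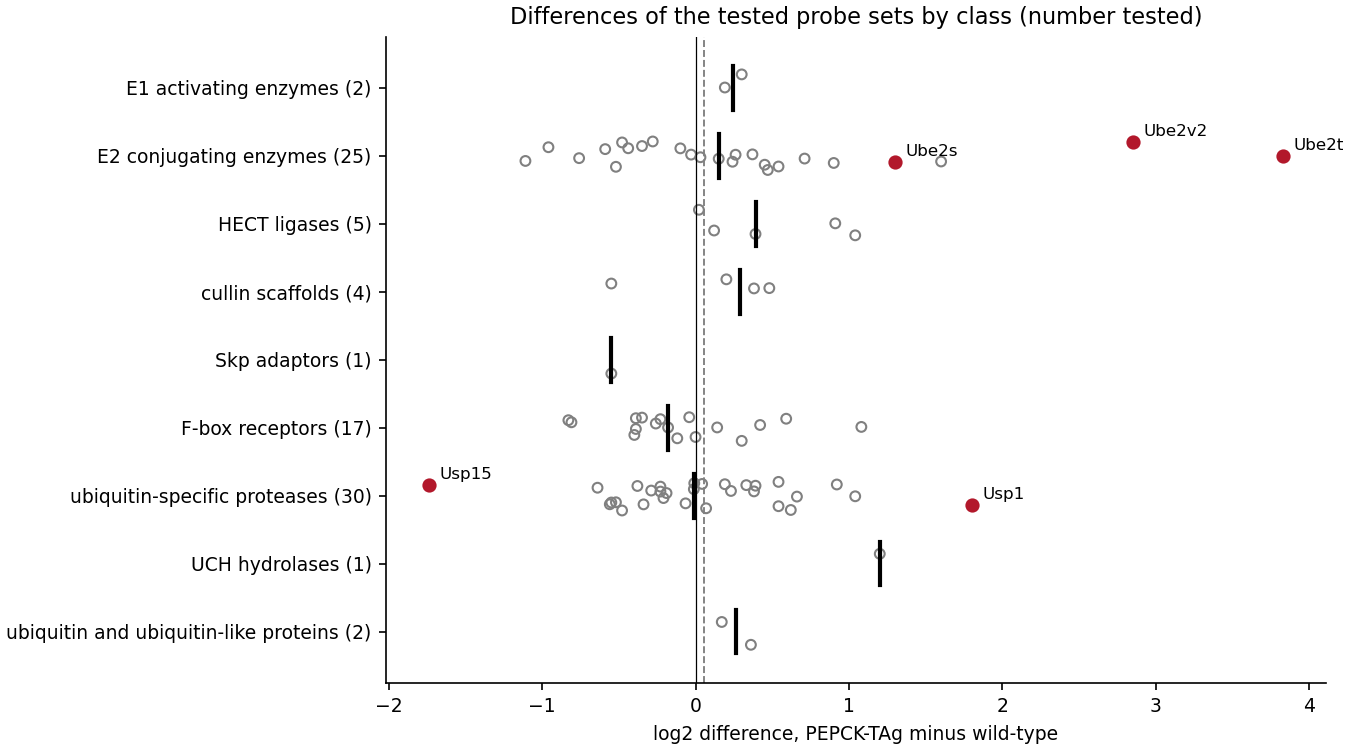
Differences of the 87 tested probe sets, as PEPCK-TAg minus wild-type on the log2 scale (horizontal axis), by class with the number tested in brackets. Filled points are the 5 called probe sets, open points the others, black bars the class medians, and the dashed line the median of all probe sets tested at 0.051. Filled points lie in the E2 and ubiquitin-specific protease classes. Open points run from -1.11 (Ube2h) to 1.60 (Ube2c), so that Ube2c exceeds the called Ube2s at 1.30.

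Of the 4 called rises, 3 were E2 enzymes. Of 29 E2 probe sets of 21 genes, 25 were tested, 3 rose and none fell, where 9.10% of all probe sets tested were called higher and 3.40% lower, with a class median of 0.15 on the log2 scale (0.0013 under quantile normalization, 0.019 without wild-type 1). Differences ran from -1.11 to 3.83.

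Ube2t, the E2 of the Fanconi anaemia pathway of DNA crosslink repair, had signals of 262.5 and 152.3 on the PEPCK-TAg arrays, against 18.6 and 5.4 on the wild-type arrays. It was bright in both PEPCK-TAg samples and dim in both wild-type samples, 1 of them under the floor of 10.59 to which low signals were raised. The log2 difference was 3.83 ± 0.47 (SE, limma adjusted p = 0.00443; each group here and below is n = 2), or at least 14.2-fold. The same-day value was 3.82. A floor set at the 40th percentile of the signals, in place of the 20th, gave 2.27.

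Ube2v2 is a variant E2 without the active-site cysteine that works as the partner of Ube2n, and the pair builds chains used in DNA damage tolerance. Its signals were 157.7 and 184.8 in PEPCK-TAg liver, against 29.6 and 18.9 in wild-type liver, with no overlap. It rose, with a log2 difference of 2.85 ± 0.38 (SE, limma adjusted p = 0.00594, same-day value 2.41). Both wild-type signals were dim but above the floor of 10.59, so no floor enters the 7.21-fold ratio of the signals. The difference stayed 2.85 with the floor at the 10th percentile. It was 2.05 with the floor at the 40th percentile, which lies above both wild-type signals. A further Ube2v2 probe set was dim on all 4 arrays, with signals of 11.7 and 19.0 in PEPCK-TAg liver and 18.1 and 12.1 in wild-type liver. The partner Ube2n read 473.5 and 483.9 in PEPCK-TAg liver and 395.4 and 472.2 in wild-type liver, a difference of 0.15 ± 0.24 (SE, limma adjusted p = 0.714). Ube2v1, the close relative of Ube2v2, read 426.4 and 473.2 against 504.5 and 589.9 in wild-type liver, a difference of -0.28 ± 0.24 (SE, limma adjusted p = 0.467). Ube2t, Ube2v2 and the F-box gene Fbxl5 reached the test through their PEPCK-TAg arrays alone, both wild-type arrays falling below the filter signal of 41.31, so that each had to differ by some amount.

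Ube2s and Ube2c serve the anaphase-promoting complex, the ligase that removes cyclin B and securin in mitosis: in human cells UBE2C starts the chains and UBE2S extends them. Ube2s had signals of 265.6 and 229.9 in PEPCK-TAg liver, against 116.9 and 86.2 in wild-type liver. It rose 2.46-fold (1.30 ± 0.29 SE on the log2 scale, limma adjusted p = 0.0355, same-day value 1.18), and it no longer passed under quantile normalization (1.03), with the scanner type as a block (1.08) or with the floor at the 40th percentile (1.30). Ube2c read 87.3 and 130.8 in PEPCK-TAg liver, against 21.5 and 57.8 in wild-type liver. The groups did not overlap, but the wild-type arrays lay more than 2-fold apart and the difference of 1.60 ± 0.54 (SE) did not pass (limma adjusted p = 0.105). It was 0.89 without wild-type 1. It was 2.31 without wild-type 2, and it passed with the scanner type as a block (2.31, limma adjusted p = 0.0144) and with the replicate block (1.60, limma adjusted p = 0.0213). Wild-type 2 was the only array on its scanner type, so the scanner block gives the same difference as leaving wild-type 2 out. The suffix of this Ube2c probe set, r_at, is Affymetrix's mark for a set that broke some of its design rules, and no other Ube2c probe set is among the members.

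Promoter windows from the RefSeq table (GRCm38.p6) are shown for Ube2t and Ube2s, the members called higher that have one there. That of Ube2s was chosen because it holds a CHR match, and that of Ube2t was added after its 3 CCAAT matches were seen. Each window runs from 250 bases before to 50 bases after the annotated start and is given 5′ to 3′ on the strand of the gene. The motifs searched on both strands were those of E2F (TTTGGCGC or TTTCGCGC or TTTCCCGC or TTTGGCGG), the cell cycle homology region CHR (TTTGAA or TTCGAA) and NFY (CCAAT), and matches are in capitals.
Ube2t, chr1:134962315-134962614, plus strand: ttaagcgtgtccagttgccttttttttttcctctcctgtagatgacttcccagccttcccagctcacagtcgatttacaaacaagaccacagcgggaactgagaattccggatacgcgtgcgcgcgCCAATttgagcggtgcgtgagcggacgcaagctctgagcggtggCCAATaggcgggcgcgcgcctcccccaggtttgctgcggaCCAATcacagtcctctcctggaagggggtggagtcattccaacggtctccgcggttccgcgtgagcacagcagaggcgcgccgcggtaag
Ube2s, chr7:4812291-4812590, minus strand: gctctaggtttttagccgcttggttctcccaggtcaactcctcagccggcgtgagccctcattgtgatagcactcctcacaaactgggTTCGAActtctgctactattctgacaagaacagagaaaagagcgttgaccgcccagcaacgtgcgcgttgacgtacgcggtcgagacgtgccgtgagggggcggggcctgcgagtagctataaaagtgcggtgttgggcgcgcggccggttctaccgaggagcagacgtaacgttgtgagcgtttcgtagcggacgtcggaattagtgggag

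The Ube2t window holds 3 CCAAT matches, starting 124, 80 and 40 bases before the annotated start, and none of the searched E2F or CHR letters. The Ube2s window holds 1 CHR match, 162 bases before its start. Of the 32851 windows in the table, 37.4% held a CCAAT match, 3.37% at least 3 of them, 19.2% a CHR match and 2.37% an E2F match. Both windows were picked for their matches, so nothing is read from these shares about them. Of the 49 tested member genes with a window, 9 held CCAAT, 10 a CHR match and 1, the protease gene Usp19, an E2F match. A match is a string of letters and not a measured binding site.

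**Figure D2:**
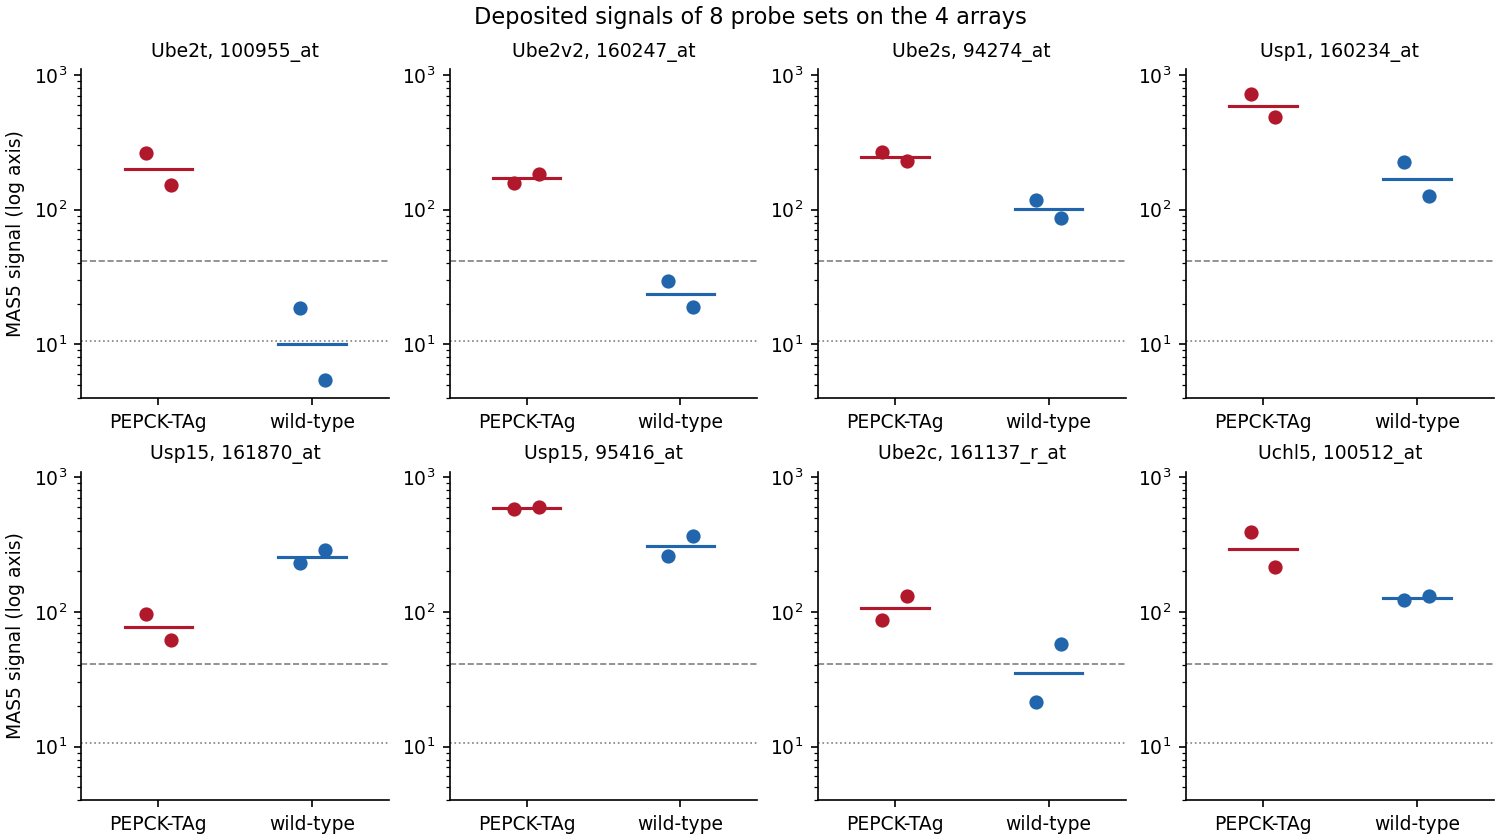
Deposited MAS5 signals (vertical log axis) of 8 probe sets, with 1 point per array, PEPCK-TAg in red and wild-type in blue, and bars at the geometric mean of 2 arrays. The dashed line is the filter level of 41.31 and the dotted line the floor of 10.59. In wild-type liver Ube2t and Ube2v2 lie below the dashed line, and the pair of Usp15 probe sets run in opposite directions.

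Some of the other E2 enzymes, none of them called, had the following values. Ube2h, an E2 abundant in maturing red cells, was lower by both of its probe sets, with values that missed the threshold. One read 100.4 and 101.5 in PEPCK-TAg liver, against 164.4 and 234.7 in wild-type liver (-0.96 ± 0.30 SE, limma adjusted p = 0.0886). The other Ube2h probe set read 151.5 and 163.1, against 204.3 and 565.6 in wild-type liver (-1.11 ± 0.47 SE, limma adjusted p = 0.171), so its size rests on wild-type 2, and its same-day value was -0.43. The Rad6 homologues Ube2a and Ube2b, which act in DNA damage tolerance and on histones, had differences of 0.54 and -0.48 (limma adjusted p = 0.244 and 0.235). Ube2d2a, a broadly used E2, read 244.5 and 323.3 in PEPCK-TAg liver and 480.5 and 468.5 in wild-type liver (-0.76 ± 0.26 SE, limma adjusted p = 0.109). Ube2g1, whose probe set had the highest mean log2 signal over the 4 arrays among the E2 probe sets, read 1254 and 968.7 in PEPCK-TAg liver and 994.5 and 855.8 in wild-type liver (0.26 ± 0.25 SE, limma adjusted p = 0.525). Brightness differs between probe sets for reasons of design, so it does not rank the transcripts.

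**Figure D3:**
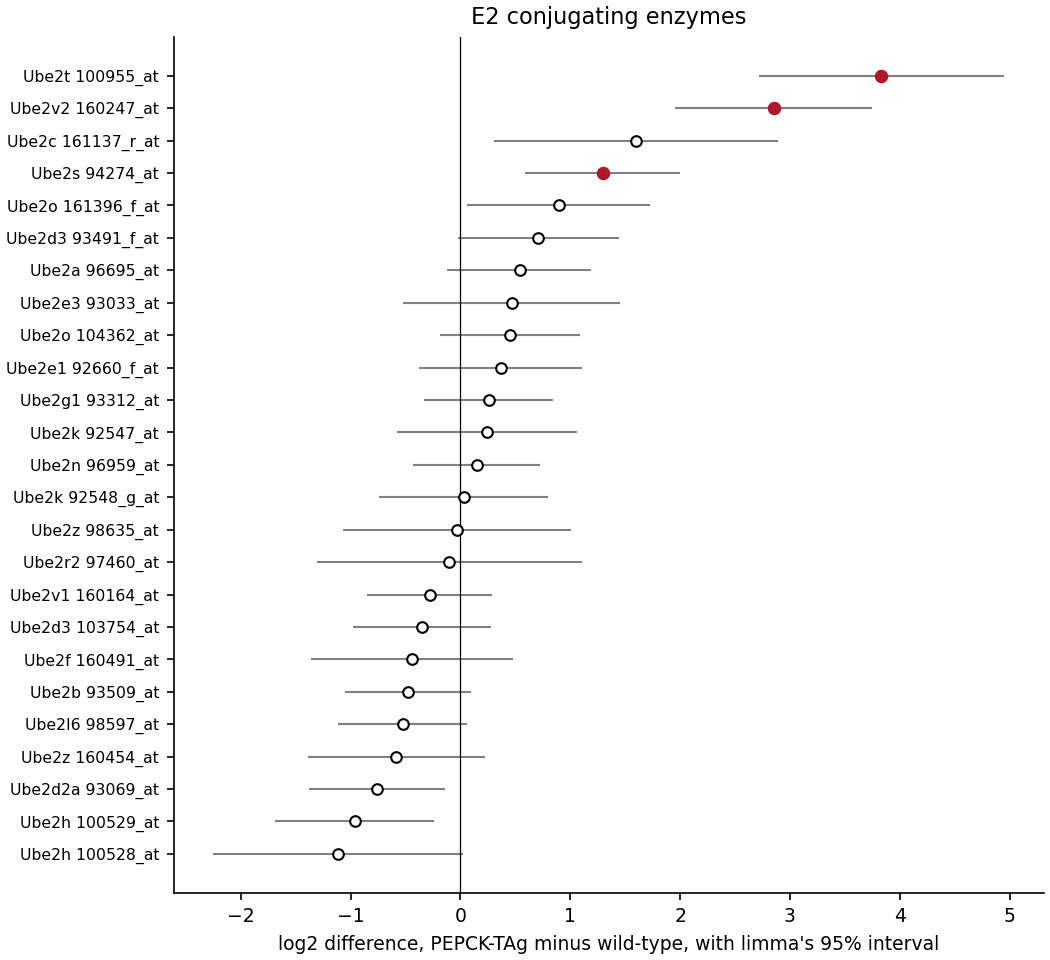
Log2 differences of the 25 tested E2 probe sets, PEPCK-TAg minus wild-type, with limma's 95% intervals as lines. Filled points passed the adjusted threshold. Ube2t, Ube2v2 and Ube2s are the filled points, Ube2c has a larger difference than Ube2s with a wider interval, and the 2 Ube2h probe sets are the lowest.

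None of the members of the SUMO, NEDD8 and ISG15 systems described next passed the test. Sumo3, a SUMO protein, read 3329.5 and 3239.1 in PEPCK-TAg liver and 2664.5 and 3174.9 in wild-type liver (0.17 ± 0.22 SE, limma adjusted p = 0.633). Nedd8 read 426.9 and 478.8 against 412.6 and 298.1 in wild-type liver (0.36 ± 0.27 SE, limma adjusted p = 0.404). A second Nedd8 probe set stayed between 27.1 and 40.6 on the 4 arrays. Uba3, the catalytic subunit of the E1 for NEDD8, read 356.2 and 251.9 in PEPCK-TAg liver and 278.6 and 246.9 in wild-type liver, overlapping groups with a difference of 0.19 ± 0.28 (SE, limma adjusted p = 0.684).

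The 3 members of the ISG15 system, which interferon induces, did not move as a set. Uba7, the E1 for ISG15, gave 0.30 ± 0.31 (SE, limma adjusted p = 0.559). Ube2l6, its E2, read 266.6 and 260.7 in PEPCK-TAg liver, against 351.8 and 407.1 in wild-type liver (-0.52 ± 0.24 SE, limma adjusted p = 0.203). Usp18, the protease that removes ISG15, read 436.0 and 350.7 in PEPCK-TAg liver, and 444.6 and 137.5 in wild-type liver. The wild-type arrays of Usp18 lay further apart than the groups did (0.66 ± 0.53 SE, limma adjusted p = 0.444). Of 13 interferon response genes tested, 2 rose and none fell, where 9.10% of all probe sets were called higher and 3.40% lower. The summed signal of the list was 5229 and 3773 in PEPCK-TAg liver and 5428 and 2096 in wild-type liver. Wild-type 2 was thus low for the list as well as for Usp18.

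No ligase part among the members passed. The 5 probe sets of HECT ligases, from 3 genes, were all higher on average, with a median of 0.39, and none passed. Tested HECT ligases that are not members ran in both directions without a call, from -0.24 (Huwe1) to 0.58 (Herc1). Nedd4l, which marks membrane sodium channels for removal, read 442.6 and 318.8 in PEPCK-TAg liver, against 180.5 and 222.2 in wild-type liver. This Nedd4l probe set did not overlap between groups (0.91 ± 0.29 SE, limma adjusted p = 0.0897, passing at 0.0455 without wild-type 2 and 0.0411 with the replicate block), whereas a second one overlapped (0.021 ± 0.32 SE, limma adjusted p = 0.976). Nedd4 gave 0.39 ± 0.22 (SE, limma adjusted p = 0.28) by its brighter probe set. Ube3a, the ligase lost in Angelman syndrome, gave 1.04 ± 0.59 (SE, limma adjusted p = 0.284), from overlapping signals of 174.1 and 77.0 in PEPCK-TAg liver and 91.2 and 34.8 in wild-type liver.

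In the cullin ligases the scaffold and the adaptor pointed in opposite directions without a call. Cul1, the scaffold of the SCF ligases, read 742.0 and 665.8 in PEPCK-TAg liver, against 503.8 and 502.0 in wild-type liver (0.48 ± 0.23 SE, limma adjusted p = 0.208). Skp1, which joins Cul1 to the F-box proteins, read 679.1 and 666.2, against 907.3 and 1059.9 in wild-type liver (-0.55 ± 0.23 SE, limma adjusted p = 0.164). Neither gene overlapped between the groups, and both stayed under a 1.5-fold difference. Cul2, the scaffold used by the VHL ligase, read 598.2 and 403.4 against 834.1 and 619.2 in wild-type liver (-0.55 ± 0.30 SE, limma adjusted p = 0.264). Cul3 and Cul4a gave 0.38 and 0.20 (limma adjusted p = 0.335 and 0.584), and Cul7 was too dim to test.

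F-box proteins choose the substrates of SCF ligases. Of 24 F-box probe sets of 16 genes, 17 were tested and none passed. On average 12 of the 17 were lower, where 41 of all 87 tested members were. The class median was -0.18 (-0.28 under quantile normalization, -0.047 without wild-type 1, -0.12 without wild-type 2). Fbxl5, the iron-sensing receptor that marks iron regulatory proteins for breakdown, read 65.7 and 59.1 in PEPCK-TAg liver, against 30.4 and 28.6 in wild-type liver (1.08 ± 0.37 SE, limma adjusted p = 0.112). Fbxw7, the receptor for cyclin E and MYC, read 91.8 and 95 against 72.3 and 53.3 in wild-type liver (0.59 ± 0.33 SE, limma adjusted p = 0.285). Fbxw4 read 137.2 and 158.5 against 261.5 and 256.3 in wild-type liver (-0.81 ± 0.26 SE, limma adjusted p = 0.0915), and its second probe set gave -0.39. Fbxo6, which recognises sugar chains on misfolded glycoproteins, overlapped between groups at 485.1 and 780.1 in PEPCK-TAg liver and 666.0 and 985.1 in wild-type liver.

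The removing enzymes held 1 rise and 1 fall, both of ubiquitin-specific proteases. Over all probe sets tested, 9.10% were called higher and 3.40% lower. Of 39 probe sets of 27 ubiquitin-specific protease genes, 30 were tested, with 14 higher and 16 lower on average and a median of -0.011 (-0.25 under quantile normalization). Usp1, which takes ubiquitin off the Fanconi protein FANCD2 and off the replication clamp PCNA, read 716.3 and 484.7 in PEPCK-TAg liver, against 226.3 and 125.9 in wild-type liver. All 4 arrays were above the filter level and the groups did not overlap. Usp1 rose 3.49-fold (1.80 ± 0.37 SE on the log2 scale, limma adjusted p = 0.0253, same-day value 1.66). Ube2t, which adds ubiquitin to FANCD2, and Usp1, which removes it, were thus both among the 4 rises.

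Usp15, a protease with roles in TGF-beta signalling, gave opposite readings by its 2 probe sets. The fainter one read 96.2 and 61.9 in PEPCK-TAg liver, against 229.1 and 287.6 in wild-type liver, and fell 3.33-fold (-1.74 ± 0.33 SE on the log2 scale, limma adjusted p = 0.0204, same-day value -1.25). The brighter one read 575.0 and 598.7, against 260.1 and 368.0 in wild-type liver (0.92 ± 0.27 SE, limma adjusted p = 0.0724, same-day value 1.14). Both separate the groups, in opposite directions, so no direction is given for the gene. The probes' places in the transcript are not used here. By the mean of its probe sets or its brightest one Usp15 was not called. With the scanner type as a block the brighter probe set passed as higher (1.17) while the fainter passed as lower. With the replicate block, too, the brighter passed as higher and the fainter as lower.

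Among the other proteases, Usp34 read 109.9 and 135.0 in PEPCK-TAg liver, against 44.7 and 78.4 in wild-type liver, by 1 probe set (1.04 ± 0.38 SE, limma adjusted p = 0.127), while a second, brighter one gave 0.042. Usp9x was lower by both probe sets, at -0.64 and -0.34 (limma adjusted p = 0.142 and 0.515). Usp7, which protects MDM2 and p53 from breakdown, gave 0.19 and 0.23 by its pair of probe sets, and Usp14, a protease bound to the proteasome, 0.33 (limma adjusted p = 0.528). Usp4, with the highest mean log2 signal of the class over the 4 arrays, read 625.6 and 810.1 in PEPCK-TAg liver, against 819.9 and 924.8 in wild-type liver. The groups lay close without overlapping, and the difference of -0.29 ± 0.25 (SE) did not pass (limma adjusted p = 0.466). Uchl5, a UCH hydrolase bound to the proteasome, read 390.1 and 216.1 in PEPCK-TAg liver, against 121.8 and 131.1 in wild-type liver, with no overlap. Its difference of 1.20 ± 0.35 (SE) missed the threshold (limma adjusted p = 0.0712). It passed without wild-type 1 (limma adjusted p = 0.0435), without wild-type 2 (limma adjusted p = 0.0378) and with the replicate block (limma adjusted p = 0.0232). Uchl1, the neuronal hydrolase, was dim at 27.5 and 12.8 in PEPCK-TAg liver and 12.3 and 14.8 in wild-type liver.

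Probe sets of 1 gene often differed from each other. Of 18 genes with more than 1 probe set tested, 6 had differences of both signs: Fbxo3, Fbxw11, Ube2d3, Usp15, Usp2 and Usp3. The widest gap was that of Usp15, at 2.66 on the log2 scale, followed by Ube2d3 at 1.06. One Ube2d3 probe set, marked as shared with related transcripts (f_at), read 876.7 and 744.9 in PEPCK-TAg liver, against 634.8 and 383.6 in wild-type liver (0.71 ± 0.31 SE, limma adjusted p = 0.175). The other Ube2d3 probe set read 383.4 and 291.2, against 456.5 and 396.5 in wild-type liver (-0.35 ± 0.26 SE, limma adjusted p = 0.413). Of the 112 members, 8 carry the suffix f_at and 5 s_at, marks of probes shared between related transcripts, and their values can include relatives.

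**Figure D4:**
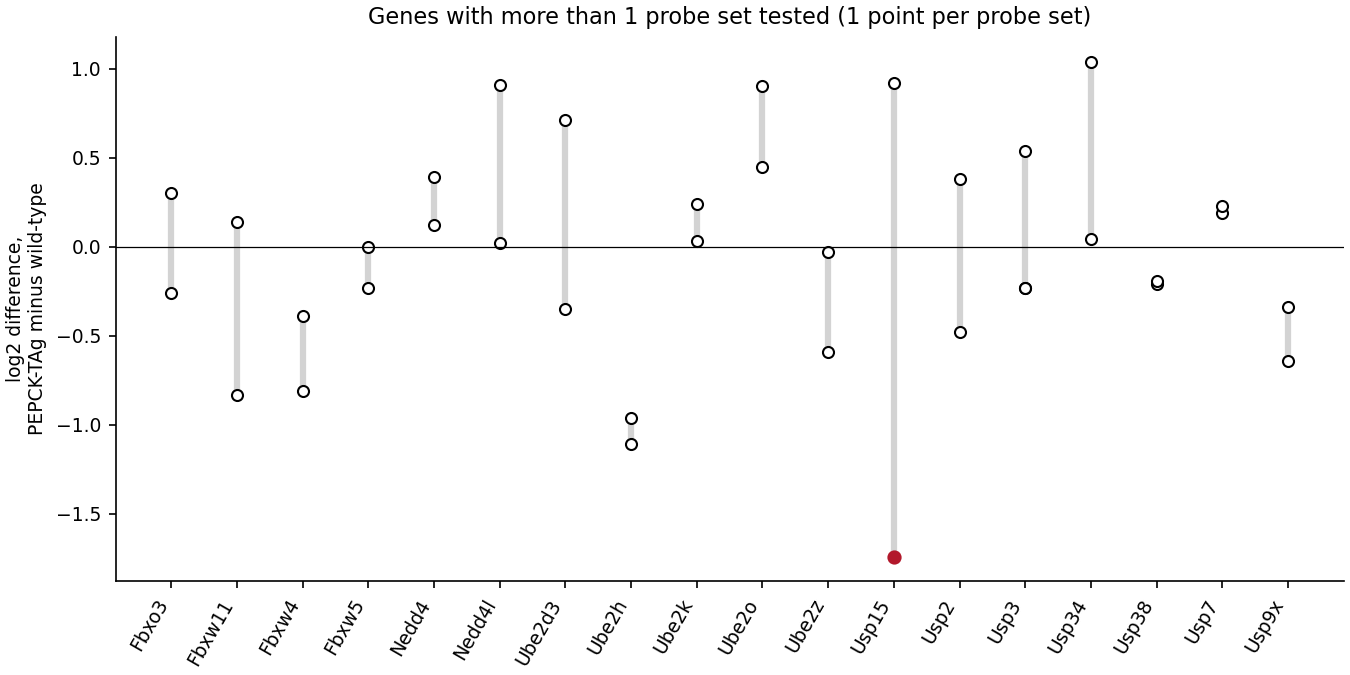
Log2 differences, PEPCK-TAg minus wild-type (vertical axis), of the 18 genes with more than 1 probe set tested, 1 point per probe set, joined by a grey bar. The filled point is the called Usp15 probe set at -1.74, whose partner lies at 0.92. Of the 18 genes, 6 have points on both sides of 0.

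The 25 members not tested were dim: 23 lay above the filter level on none of the 4 arrays and 2 on 1 array. They left 12 genes without a tested probe set, namely Uba1y, Ube2w, Cul7, Fbxl12, Fbxl15, Fbxo15, Usp12, Usp17la, Usp17lc, Usp29, Usp42 and Uchl1. Uba1y, the Y-linked E1 of the testis, did not exceed 5.9 in PEPCK-TAg liver or 20.1 in wild-type liver by either probe set. Over all 112 members, with no filter, the median difference was 0.015.

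Other genes of the ubiquitin system were read from lists that are not members, each gene by its brightest probe set. The counts of these lists, here and in the next paragraph, stand beside 9.10% of all probe sets called higher and 3.40% called lower. Of 9 genes of the anaphase-promoting complex and its activators, 3 rose and none fell, with a median of 0.72. Cdc20, the mitotic activator of the complex, read 1381.4 and 1200.9 in PEPCK-TAg liver, against 112.9 and 110.0 in wild-type liver (3.53 ± 0.24 SE on the log2 scale, limma adjusted p = 0.000927). The subunits Anapc4 and Anapc5 rose 2.85-fold and 2.05-fold. Of 41 ligases listed as single-subunit, 4 rose and 1 fell, with a median of 0.056. Rnf7, which was not called, is counted in this list and again among the parts of cullin ligases below. Uhrf1, which links DNA methylation to replication, rose 16.8-fold, Brca1 of DNA repair 6.05-fold and Peli1 2.96-fold, Trim30a rose by at least 3.96-fold, and Rnf14 fell 1.83-fold. Uhrf1, Trim30a and the tag Ubd given next were under the filter signal on both wild-type arrays, so they too were tested through their PEPCK-TAg arrays alone and their folds rest on dim signals.

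Of 23 other parts of cullin ligases, 3 rose and none fell, with a median of 0.32. They were Cks2 (3.97-fold) and Cks1b (3.20-fold), small partners of cyclin-dependent kinases of which human CKS1B assists SKP2, and Socs2 (4.51-fold). Socs2 is a substrate receptor of a cullin ligase that acts on the growth hormone pathway, and not a hormone receptor. Of 21 other tags and their enzymes, 2 rose and 2 fell, with a median of -0.23. The ubiquitin-like protein Ubd rose at least 12.3-fold and Sae1, a subunit of the SUMO E1, 2.94-fold, whereas Gabarapl1 and Atg5 of autophagy fell 2.88-fold and 2.42-fold. Of 15 ubiquitin receptors, 1 rose (Ubqln2, 2.11-fold), with a median of -0.11. Of 6 other deubiquitinases, 0 passed in limma (median -0.15).

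Genes of dividing cells and most tested markers of neutrophils, erythroid cells and macrophages were higher on average beside these rises. Over all probe sets tested, 9.10% were called higher. Of 13 genes of dividing cells tested, 12 rose, and their summed signal was 9034 and 8717 in PEPCK-TAg liver, against 784 and 634 in wild-type liver, where Mki67 and Bub1 were at the floor. Of 8 neutrophil markers 7 rose, with sums of 7279 and 11125 against 314 and 382 in wild-type liver and S100a9 and Mpo at the floor there. Of 7 erythroid markers 6 rose, with sums of 9151 and 12646 against 2897 and 2994 in wild-type liver, and Epb42 at the floor there. The erythroid marker Alas2 was lower without a call (-0.57). Of 9 Kupffer cell and macrophage markers 3 rose (4619 and 5138 against 2118 and 2197 in wild-type liver). Of 4 lymphocyte markers tested 2 rose, Ptprc and Ccl5, while Ms4a1 and Cd79a were lower without a call (-0.65 and -0.56). Mki67, Cdk1, Rrm2, Top2a, Aurka, Aurkb, Birc5, Bub1, S100a9, Ngp, S100a8, Mpo, Hemgn, Epb42, Ptprc and Ccl5 were under the filter signal on both wild-type arrays. They were tested through their PEPCK-TAg arrays alone, so the filter in part fixed these counts of rises. Of 6 hepatocyte markers 2 fell and 4 did not pass, and the sums were 33557 and 44337 against 64169 and 68900 in wild-type liver, so hepatocyte RNA was present on all 4 arrays. The part of cell division and of these cell types in the differences of Ube2t, Ube2v2, Ube2s and Usp1 was not tested, and in whole liver RNA fewer cells of a type and less RNA per cell cannot be told apart.

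**Figure D5:**
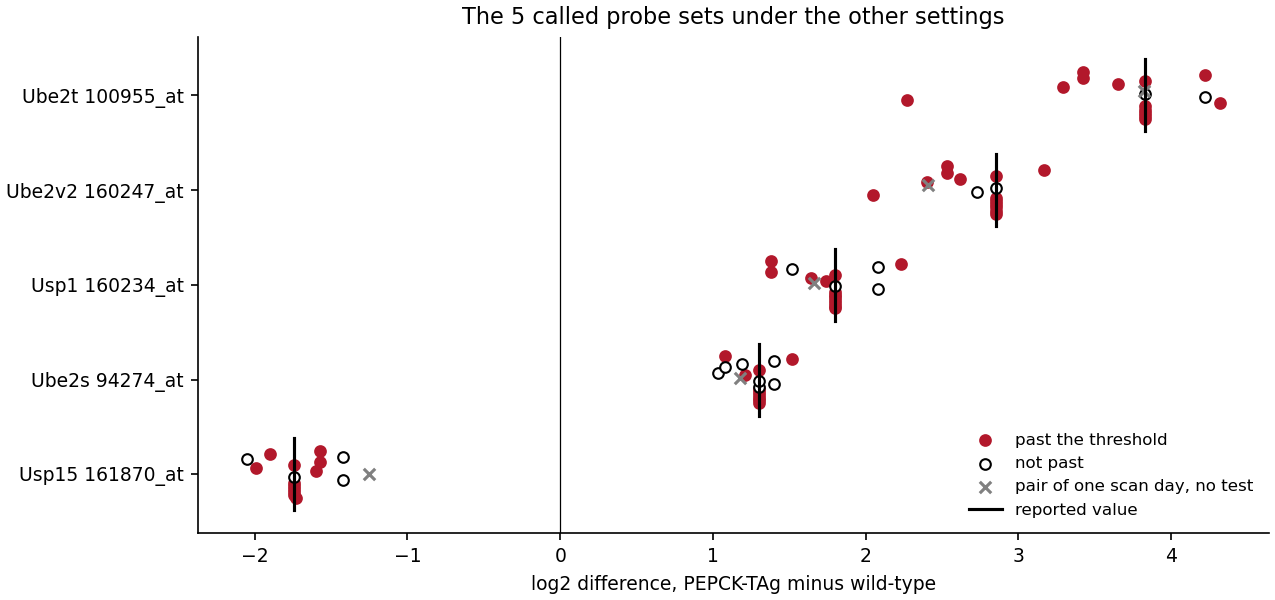
Log2 differences, PEPCK-TAg minus wild-type, of the 5 called probe sets under each other setting in which they had a value, with filled points past the adjusted threshold, open points not past it, crosses for the same-day pair and black bars for the reported values. Ube2t and Ube2v2 were not tested with a PEPCK-TAg array left out and have no point there. Ube2t ranges from 2.27 to 4.32, Ube2v2 from 2.05 to 3.17, Usp1 from 1.38 to 2.23, Ube2s from 1.03 to 1.52 and the Usp15 probe set from -2.05 to -1.25.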

How the data were processed

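Liver RNA was measured on 2 PEPCK-TAg and 2 wild-type arrays, 1 per sample. Each array's deposited column holds linear intensity values from MAS5, per the submitters' processing notes, which give no version. Their 2% trimmed means were nearly equal before any step taken here. The run settings (station, scanner, lot, scan day) are per the file headers.

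Here each array was scaled to the mean trimmed mean (a change of at most 0.1%), low signals were set to the 20th percentile (10.59) and log2 was taken. Probe sets with at least 2 of 4 arrays above the 40th percentile (41.31) were tested, 7877 of 12422, with limma 3.58.1 in R 4.3.3 (lmFit, eBayes with trend, two-sided, Benjamini-Hochberg over all tested, no block). Signals near background or saturation shrink folds, and the number of arrays limits precision. A fold is a bound where an array of the lower group is at the floor. Symbols are the platform annotation's (1 symbol for 10833 probe sets, several for 396, none for 1193), and all 112 members matched RefSeq by gene ID and symbol. A further 4 probe sets list a matching symbol among several and were left out.

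Named members are those called, the largest uncalled non-overlapping and the brightest of each class, a fixed set (Skp1, Cul1, Fbxw7, Nedd8, Uba7, Ube2l6, Usp18, Uchl1 and others without a probe set), and further probe sets of called genes. All other members named (such as Ube2n, Ube2h, Ube2d3, Ube3a, Fbxw4, Usp9x and those of the closing section), the fifth single-subunit ligase and the Ube2t promoter were chosen after their values were seen. Members and lists were chosen with earlier results of these data known. The fit was tested on simulated data with known differences.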

Additional observations from a re-analysis of the deposited data

How the results depend on the processing

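Against 4 members called higher and 1 lower, no filter on dim probe sets gave 0 and 0 in limma (11 and 12 at an unadjusted p of 0.05) and the fluidics station as a block 0 and 0 (8 and 2). The labels' replicate numbers as a block gave 9 and 5, and an adjusted p of 0.1 gave 7 and 3. Calls over all probe sets moved too, to 129 and 36 of 12422 with no filter and 1240 and 633 of 7877 with the replicate block. At an adjusted p of 0.1 they were 1108 and 513 of 7877, against 717 and 268 at 0.05. With 1 value per gene, by its brightest probe set or by averaging, the lower call was lost (0). The 3 E2 calls and 1 protease call higher became 0 and 0 with no filter and with the station block, 5 and 2 with the replicate block, and 0 to 4 and 0 to 3 with an array left out. Leaving out 1 array gave 0 to 9 higher and 0 to 5 lower, with 6 to 16 members past 2-fold without overlap in place of 10. The filter was set again for each of these, and the lone array of a group is assumed to vary like the others. Over all probe sets, 874 to 1371 were then 2-fold higher without overlap and 429 to 602 lower, in place of 1154 and 462. The median of 0.042 became 0.15 with brightest probe sets, 0.10 with gene means, 0.081 with the station block, 0.086 with a scanner block, 0.083 in the same-day pair and -0.078 under quantile normalization, and ran from 0.0059 to 0.05 with an array left out. The E2 median of 0.15 became 0.0013 under quantile normalization, and 0.019 to 0.15 with an array left out. The F-box median of -0.18 became -0.28 under quantile normalization and -0.068 with no filter, and -0.17 to -0.047 with an array left out. That of the ubiquitin-specific proteases, -0.011, became -0.25 under quantile normalization, and -0.10 to 0.037 with an array left out. Uba3 turned sign under quantile normalization (-0.012) and without PEPCK-TAg 1 (-0.059, up to 0.44 with another array left out). Uba7 turned with a scanner block and without wild-type 2 (-0.024 in both, up to 0.62). Usp18 turned in the same-day pair (-0.031), and with a scanner block and without wild-type 2 (-0.19 in both, up to 1.51). Wild-type 2 alone had its scanner type and PEPCK-TAg 2 alone its station. For a probe set tested in both, each block thus gives the same difference as leaving that array out. No other direction turned among the 26 named members tested. The causes were not tested, except that fewer probe sets or samples enter some settings. The replicate numbers pair no samples by the labels: same-numbered arrays' deviations correlated at 0.253 across probe sets. Chip lot was not used as a block, since the lot of the PEPCK-TAg arrays holds no wild-type array.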

Other observations

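Some members differed between arrays of 1 group more than between the groups. A gap of 2-fold or more separated the wild-type arrays in 12 of the 87 tested members and the PEPCK-TAg arrays in 2. Ube2r2, an E2 of the family that works with SCF ligases, read 567.3 and 1156.8 in PEPCK-TAg liver and 554.1 and 1365 in wild-type liver, so the second array of each group was the high one. One Ube2z probe set did the same, with 207.0 and 365.2 in PEPCK-TAg liver and 195.8 and 401.5 in wild-type liver. Ube3a ran the other way, with the first array of each group the high one. One probe set of Usp2, a protease under circadian control, read 516.1 and 785.2 in PEPCK-TAg liver, and 911.8 and 260.3 in wild-type liver, so the wild-type pair spanned the PEPCK-TAg pair.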
